A study of Mus musculus with 3 samples.

Results

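Dividing astrocytes are cells that carry the transcripts of astrocytes and of the mitotic cell cycle at the same time, and 204 of 14192 cells from mouse prefrontal cortex on postnatal day 6 met a rule for them. The members were selected on measured values of these genes. The rule asked for at least 2 of the 4 cycle genes Mki67, Top2a, Cenpf and Birc5 above 0 and at least 3 of the 5 astrocyte genes Slc1a3, Aldoc, Aldh1l1, Gja1 and Aqp4 above 0. It allowed at most 1 gene above 0 in each of 4 trios that mark oligodendrocyte precursors (Pdgfra, Lhfpl3, C1ql1), Dlx-positive neuronal cells (Dlx1, Dlx2, Sp9), microglia (Csf1r, P2ry12, Tmem119) and endothelial cells (Cldn5, Flt1, Kdr). Libraries 1, 2 and 3 gave 52, 95 and 57 such cells, each set against the 980, 1241 and 870 cells of the same library that passed the astrocyte part of the rule with none of the 4 cycle genes, here called non-dividing astrocytes. The 432 cells with exactly 1 cycle gene were in neither group.

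All cells came from mice of both sexes that had inhaled about 3% sevoflurane, a volatile general anaesthetic, 1 time on postnatal day 6 and were killed that day after the exposure. The 3 libraries form 1 group, sev1, and no unexposed group was analysed here, so every comparison sets cells of exposed tissue against other cells of that tissue, and what the anaesthetic did cannot be read from them. No strain, allele or transgene is labelled. Separate animals behind the 3 libraries, or pooling, are not labelled either, so p-values measure the spread between these libraries, which may be technical. The transcripts were counted by droplet sequencing on the 10x Genomics Chromium platform. The labels name frozen tissue and a bulk RNA reagent (Trizol) beside this workflow, so whether whole cells or nuclei were loaded is not settled, and each barcode is called a cell here.

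Astrocytes support neurons by taking up glutamate and potassium, coupling through gap junctions and supplying lipids. In rodents most cortical astrocytes arise in the first weeks after birth, in large part by symmetric division of astrocytes already in the cortex, while others come from radial glia and from the subventricular zone. A cell that divides first copies its DNA with the replication machinery (the S phase) and then builds a spindle and separates its chromosomes (G2 and mitosis), and genes of both steps are transcribed in waves tied to the phase.

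Libraries 1, 2 and 3 held 4775, 5134 and 4283 cells, with medians of 2603, 2502 and 2508 detected genes. Each deposited value is the natural log of 1 plus a whole number, here called a corrected count because the whole numbers appear to have been adjusted for depth, and the depth before that step is unknown. Levels are given as CPM, corrected counts per 1000000 of the cell's total, averaged over the cells of a group in each library. They are not divided by gene length, so each is compared between groups for the same gene and not between genes. Of 14102 distinct barcodes, 90 occurred in more than 1 library, and 2 of the 204 dividing astrocytes had such a barcode. Values after ± are SD over the 3 libraries for levels and shares, and standard errors of the fit for log2 folds.

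The genes of the rule are given as a description, without a test, because they chose the cells. Mki67, which coats mitotic chromosomes and is the usual marker of proliferation, averaged 473 ± 54.5 CPM in dividing astrocytes and was 0 in non-dividing ones by the rule. Top2a, the topoisomerase that untangles replicated DNA, averaged 862 ± 78.6 CPM, Cenpf, a kinetochore protein, 671 ± 149.6 CPM, and Birc5, the survivin subunit of the chromosomal passenger complex, 311 ± 2.12 CPM. All 4 cycle genes were above 0 in 98 dividing astrocytes, 3 in 42 and 2 in 64, and the commonest pair among the last was Mki67 with Cenpf, in 22 cells. On the astrocyte side, the glutamate transporter gene Slc1a3 averaged 3258 ± 129 CPM in dividing and 3693 ± 220.4 CPM in non-dividing astrocytes, and the folate enzyme gene Aldh1l1 314 ± 5.58 CPM in dividing and 337 ± 33.7 CPM in non-dividing astrocytes. The glycolytic enzyme gene Aldoc stood furthest apart of the 5, at 878 ± 85.2 CPM in dividing and 2021 ± 86.8 CPM in non-dividing astrocytes. Gja1, the main astrocyte connexin, averaged 998 ± 119 CPM in dividing and 1382 ± 37.6 CPM in non-dividing astrocytes, and the water channel gene Aqp4 1071 ± 61.0 CPM in dividing and 1506 ± 64.8 CPM in non-dividing astrocytes. All 5 astrocyte genes were thus lower on average in the dividing cells, though all were well above 0.

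Astrocyte markers that the rule did not use were present. The glutamate transporter gene Slc1a2 was above 0 in 196 of 204 dividing astrocytes (96.1%) and in 3022 of 3091 non-dividing ones (97.8%), against 19.8% of non-dividing microglia, which should lack it. Mlc1, a membrane protein of astrocyte endfeet, was above 0 in 96.6% of dividing and 97.7% of non-dividing astrocytes, against 11.7% of those microglia. The receptor gene Fgfr3 was above 0 in 70.1% of dividing and 72.1% of non-dividing astrocytes, against 5.29%, and the connexin gene Gjb6 in 21.1% of dividing and 30.0% of non-dividing ones, against 1.79%. Median detected genes per cell were 3173.5 in dividing astrocytes, 2697 in non-dividing astrocytes and 1810 in the microglia. All 4 markers were several times more frequent in both astrocyte groups than in the microglia. The summed level of these 4 markers was 2746 to 2878 CPM over the libraries in dividing and 3534 to 3546 CPM in non-dividing astrocytes.

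Summed markers of oligodendrocyte precursors, oligodendrocytes, neurons, microglia and endothelial cells were low in both groups. The sums include the trios of the rule, which allowed at most 1 gene of each trio in either group. Low sums of precursor, neuronal, microglial and endothelial markers were thus set in part by the rule. The library ranges overlapped between the groups for every class except the endothelial trio, which was lower in dividing astrocytes. The 6 markers of oligodendrocyte precursors summed to 37.8 to 54.5 CPM in dividing and 39.9 to 43.9 CPM in non-dividing astrocytes, against 4199 to 4207 CPM in cells with at least 2 of the precursor trio. The 5 oligodendrocyte markers summed to 21.3 to 148 CPM in dividing and 48.6 to 79.7 CPM in non-dividing cells, with 2 of the 5 at 0 in every dividing astrocyte, and the 6 neuronal markers to 56.6 to 161 CPM in dividing and 76.1 to 93.1 CPM in non-dividing cells, with 1 at 0. Microglial markers (5 genes) summed to 75.9 to 109 CPM in dividing and 71.5 to 126 CPM in non-dividing cells, and the endothelial trio to 24.0 to 26.7 CPM in dividing and 31.8 to 33.7 CPM in non-dividing cells. No trio covered the mural cells of blood vessels. Their gene Rgs5 had 15.7, 417 and 173 CPM in dividing, against 136, 232 and 404 CPM in non-dividing astrocytes. Vtn, another mural gene, had 26.6, 140 and 131 CPM in dividing, against 109, 112 and 156 CPM in non-dividing astrocytes. Hemoglobin transcripts, which belong to red blood cells, reached 6408 to 13443 CPM in dividing and 6154 to 13059.8 CPM in non-dividing cells, with library ranges that overlap. No gene of the 4 trios was above 0 in 128 of the 204 dividing astrocytes, and 1 of them was called a suspected doublet, out of 287 such calls in all cells.

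The share of dividing cells was low among astrocytes. Of all cells passing the astrocyte gate, 4.41% (3.31 to 5.74%) were dividing in library 1, 6.28% (5.11 to 7.62%) in library 2 and 5.51% (4.20 to 7.08%) in library 3 (exact 95% binomial intervals, which cover counting error only), a mean of 5.40% ± 0.941. Under the same cycle rule the mean share was 16.2% ± 1.43 of oligodendrocyte precursors, 30.0% ± 12.6 of Dlx-positive cells, 28.4% ± 4.99 of microglia and 13.6% ± 3.35 of endothelial cells. Each of these 4 exceeded the astrocyte share in every library. The rule used these values, so they are a description. With 3, 4 and 5 astrocyte genes above 0 there were 30, 44 and 130 dividing astrocytes, against 174, 593 and 2324 non-dividing ones. The astrocyte gate asked for 3 of 5 genes and the other 4 gates for 2 of 3. The part of this in the order of the shares was not tested. As a level for cells not thought to divide, 11 of 348 cells with at least 3 of 5 oligodendrocyte genes had at least 2 cycle genes, a share of 3.16% (1.59 to 5.59%). Of 75 cells that passed a gate for Cajal-Retzius neurons, which stop dividing before birth, 2 did, a share of 2.67% (0.325 to 9.30%). Over all libraries the astrocyte share was 5.47% (4.77 to 6.25%), whose interval overlaps both. The part that free RNA or doublets have in the 204 cells was not tested. Median detected genes were 2731 in the astrocyte gate, 3038.5 in the oligodendrocyte gate and 3313 in the Cajal-Retzius gate. With at least 3 cycle genes asked for, the shares were 3.76% (3.17 to 4.42%) in the astrocyte gate, 2.30% (0.998 to 4.48%) in the oligodendrocyte gate and 1.33% (0.0338 to 7.21%) in the Cajal-Retzius gate. Dividing astrocytes made up 1.09%, 1.85% and 1.33% of all cells in libraries 1, 2 and 3, and 8.59% ± 2.51 of all cells with at least 2 cycle genes.

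**Figure D1:**
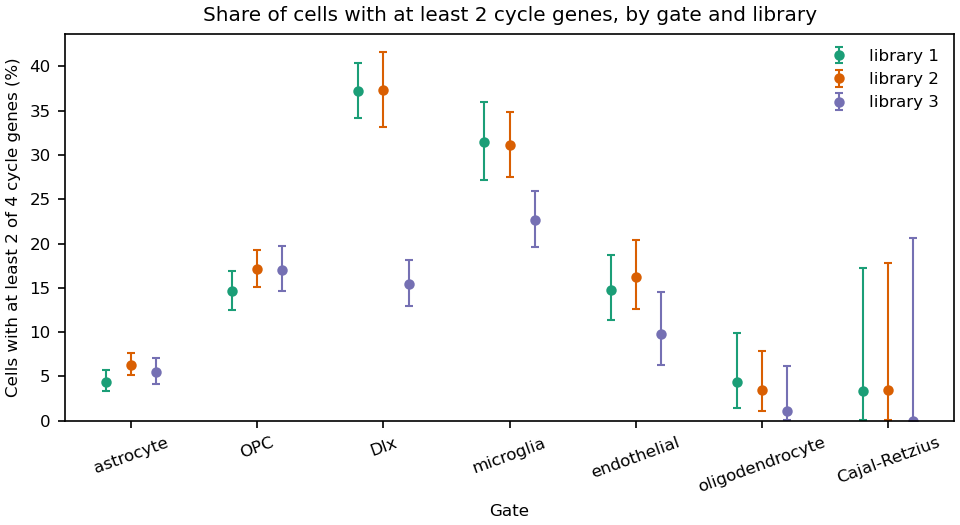
Share of cells with at least 2 of the 4 cycle genes (y axis, %) in 7 gates (x axis), 1 point per library with its exact 95% binomial interval. The astrocyte points sit at 4.41%, 6.28% and 5.51%, below every point of the oligodendrocyte precursor, Dlx, microglia and endothelial gates.

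G2 and mitosis genes held the largest differences. Prc1, which bundles microtubules at the spindle midzone, had 508, 422 and 423 CPM in dividing astrocytes of libraries 1, 2 and 3, against 3.74, 2.82 and 4.88 CPM in non-dividing astrocytes (log2 fold 5.06). The mitotic cyclin gene Ccnb1 had 557, 395 and 386 CPM in dividing, against 4.99, 3.40 and 3.09 CPM in non-dividing cells (log2 fold 5.03), and Ube2c, which feeds ubiquitin to the complex that ends mitosis, 527, 503 and 490.1 CPM in dividing, against 6.49, 7.51 and 6.66 CPM in non-dividing cells (log2 fold 4.93). In all 3 genes the lowest dividing library stood far above the highest non-dividing one. The promoters of these 3 genes, which lead the list, are shown because G2 and mitosis genes are known to be repressed outside division through a promoter element called the cell cycle genes homology region, often near CCAAT boxes. The sequences are RefSeq windows of 300 bases on GRCm38.p6, the same assembly as the build mm10 named in the submitters' notes, from 250 bases before to 50 bases after the annotated start, written 5′ to 3′ in the direction of the gene. Capitals mark TTTGAA and CCAAT on either strand (so also TTCAAA and ATTGG). For Prc1 the window is chr7:80294201-80294500 on the + strand (1 of 2 annotated starts), for Ccnb1 chr13:100786437-100786736 on the - strand and for Ube2c chr2:164769679-164769978 on the + strand.
Prc1: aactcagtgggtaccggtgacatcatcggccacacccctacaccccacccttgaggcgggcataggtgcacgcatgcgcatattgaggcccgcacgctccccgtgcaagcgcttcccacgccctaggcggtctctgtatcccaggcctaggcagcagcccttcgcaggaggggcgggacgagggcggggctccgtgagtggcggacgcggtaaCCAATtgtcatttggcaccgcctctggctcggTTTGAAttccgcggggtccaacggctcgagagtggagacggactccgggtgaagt
Ccnb1: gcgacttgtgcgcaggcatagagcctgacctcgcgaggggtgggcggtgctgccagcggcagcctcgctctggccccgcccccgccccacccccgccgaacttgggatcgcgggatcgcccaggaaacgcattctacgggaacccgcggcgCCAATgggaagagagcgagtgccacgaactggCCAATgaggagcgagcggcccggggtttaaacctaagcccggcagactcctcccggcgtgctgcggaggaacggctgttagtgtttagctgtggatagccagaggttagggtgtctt
Ube2c: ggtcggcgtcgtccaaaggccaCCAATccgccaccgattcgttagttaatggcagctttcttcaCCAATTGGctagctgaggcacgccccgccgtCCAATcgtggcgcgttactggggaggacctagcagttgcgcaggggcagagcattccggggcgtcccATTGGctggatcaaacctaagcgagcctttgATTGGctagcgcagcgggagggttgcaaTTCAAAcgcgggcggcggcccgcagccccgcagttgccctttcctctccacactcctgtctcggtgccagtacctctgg
In the Ube2c window 2 of the marked boxes, CCAAT and ATTGG, overlap. The Ccnb1 window holds 2 CCAAT boxes and no TTTGAA in these letters. The window of Slc7a10, the astrocyte gene with the largest fall in its list, holds neither motif, but 1 window cannot set a contrast. Of 35 windows found for 33 of 40 listed G2 and mitosis genes, 28 (80.0%) held TTTGAA and 28 held CCAAT, with both in 24 (68.6%). Among all 32851 windows 17.9% held TTTGAA, 37.4% CCAAT and 6.95% both. The 29 windows of 24 of 30 DNA replication genes held TTTGAA in 10.3% and CCAAT in 58.6%, and the 44 windows of 34 of 40 mature astrocyte genes in 11.4% and 36.4%. A match is a description of letters, not of binding.

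All 30 listed DNA replication genes, 38 of 39 tested G2 and mitosis genes and 12 of 13 replication-linked histone genes passed the test as higher in dividing astrocytes. Over all 9608 genes tested, 19.7% passed as higher, but these 3 lists move with the 4 genes of the rule and their counts support nothing. Their median log2 folds were 1.92, 4.09 and 1.75, against 0.06 over all genes. Rrm2, the subunit of ribonucleotide reductase that limits the supply of DNA precursors, had 484, 523 and 456 CPM in dividing astrocytes, against 23.4, 18.9 and 20.1 CPM in non-dividing ones. The replication clamp gene Pcna had 303, 347 and 320.0 CPM in dividing, against 40.2, 38.6 and 54.0 CPM in non-dividing cells, and the histone gene Hist1h2ap 339.5, 292 and 298 CPM in dividing, against 7.29, 5.14 and 8.09 CPM in non-dividing cells. The groups did not overlap in any of these 3 genes. The 1 mitosis gene that stood apart was Pttg1, which encodes securin, the inhibitor of chromatid separation: it had 109, 92.2 and 110.4 CPM in dividing astrocytes, against 119.8, 108 and 113 CPM in non-dividing ones. It was above 0 in 44.6% of dividing and 49.1% of non-dividing astrocytes, and in 19.3% of cells of the oligodendrocyte gate.

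Most single dividing astrocytes held more mitosis than replication genes, from lists of unequal length. A dividing astrocyte had a median of 9.5 of 30 replication genes and 23 of 39 mitosis genes above 0, against 2 and 1 in non-dividing astrocytes. Replication genes outnumbered mitosis genes in 37 of the 204 cells, mitosis genes in 157, and the numbers were equal in 10. The share with more replication genes was 17.3%, 23.2% and 10.5% in libraries 1, 2 and 3, or 18.1% of all 204. It was 26.8% of dividing oligodendrocyte precursors, 21.2% of dividing Dlx-positive cells and 23.8% of dividing microglia. The 4 cycle genes of the rule are known to be transcribed mostly from late S phase to mitosis, so the rule itself favours cells late in the cycle.

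The mean level of the mitosis list was higher with each further cycle gene in a cell, in every library. The summed level of the G2 and mitosis list was 310.1 ± 25.5, 489 ± 51.1, 2119 ± 774, 6498 ± 613 and 15643 ± 2222 CPM in astrocyte-gate cells with 0, 1, 2, 3 and 4 cycle genes. Cells just outside the threshold, with 1 cycle gene, thus lay near the non-dividing cells, and those just inside, with 2, lay between. For the replication list, where library 3 did not keep this order, the sums were 506 ± 18.5, 887 ± 194, 1229 ± 488, 3968 ± 939.6 and 4184 ± 353 CPM. The 40 mature astrocyte genes ran the other way in libraries 1 and 2, and with a break at 2 cycle genes in library 3, at means of 85563 ± 1900.4, 80527 ± 4671, 68153 ± 5719, 61209 ± 8223 and 48308 ± 5835 CPM. Malat1, an abundant nuclear non-coding RNA outside the lists, averaged 70082 ± 1387, 63279.6 ± 2781, 38874 ± 4925, 26442 ± 1673 and 37045 ± 3683 CPM with 0, 1, 2, 3 and 4 cycle genes, and Slc7a10, a transporter gene of mature astrocytes, 827 ± 34.7, 746 ± 18.7, 426 ± 78.6, 313 ± 227 and 348 ± 84.7 CPM. Both were lower with 2 to 4 cycle genes than with 0 or 1, without an order among 2, 3 and 4.

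**Figure D2:**
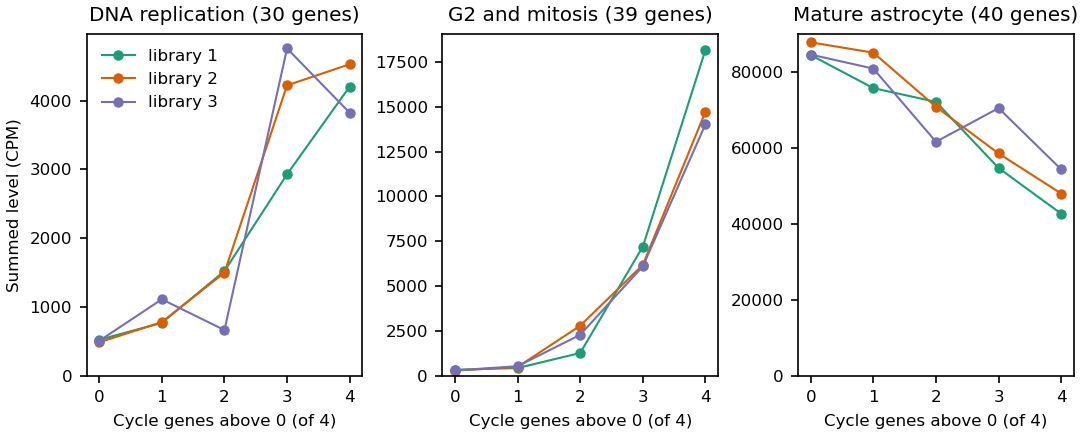
Summed level (y axis, CPM) of 30 DNA replication, 39 G2 and mitosis and 40 mature astrocyte genes in astrocyte-gate cells with 0 to 4 of the cycle genes above 0 (x axis), 1 line per library. The mitosis sum is higher at each step in all 3 libraries and reaches 18176, 14728 and 14025 CPM at 4 cycle genes, and the mature astrocyte sum is lowest at 4 cycle genes in all 3.

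Across all genes, 1893 of 9608 (19.7%) rose and 885 (9.21%) fell in dividing astrocytes, 28.9% in all, by limma with Benjamini-Hochberg adjustment at 0.05, which is the test behind every adjusted p given here. The 21 genes of the rule were left out. The same cells' counts chose the groups, so the p-values describe how steadily the 3 libraries differ. In 25.9% of genes all 3 dividing libraries lay above all 3 non-dividing ones, and in 14.9% all lay below. Dividing astrocytes had more detected genes per cell, so the fit was repeated with the non-dividing cells of every gate weighted to the dividing cells' numbers of detected genes, called equal detected genes below: 1008 rose (10.1%) and 448 fell (4.49%). Centring each library on its median gene gave 1199 rises (12.5%) and 1868 falls (19.4%) and put the median log2 fold at -0.09, against 0.06 in the main fit, so small changes have no settled direction. There were 1339 rises (14.0%) and 451 falls (4.72%) without library 1, and 1330 rises (13.7%) and 561 falls (5.8%) without library 2.

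Genes of mature astrocytes fell as a group: 0 rose and 30 fell of 38 tested, where 9.21% of all genes fell, and 0 were higher and 33 lower at an unadjusted p under 0.05. Their median log2 fold was -0.56, against 0.06 over all genes. Slc7a10, the transporter of serine and glycine in cortical astrocytes, had 292, 354 and 436 CPM in dividing, against 855, 839 and 788 CPM in non-dividing cells (log2 fold -1.19 ± 0.19, adjusted p = 2.5e-05). F3, the tissue factor gene, had 171, 168 and 187 CPM in dividing, against 309, 367 and 358 CPM in non-dividing cells (log2 fold -0.93 ± 0.17, adjusted p = 8.3e-05), and the secreted chaperone clusterin (Clu) 1009, 699.6 and 1036 CPM in dividing, against 1673, 1761 and 1706 CPM in non-dividing cells (log2 fold -0.92 ± 0.15, adjusted p = 3.7e-05). In each gene every dividing library lay below every non-dividing one. Lcat, which esterifies cholesterol on lipoproteins, showed the same, at 90.0, 109 and 79.5 CPM in dividing, against 158, 179.5 and 187 CPM in non-dividing cells (log2 fold -0.85 ± 0.16, adjusted p = 2.3e-04). Among the other falls were Gpr37l1 (log2 fold -0.80), a receptor gene of astrocytes, Glul (-0.59), the glutamine synthetase gene, Apoe (-0.60), the main lipoprotein of the brain, and the metallothionein gene Mt1 (-0.62). Slc1a2 did not pass the test, at 1757, 1768 and 1743 CPM in dividing, against 2176, 2232 and 2199.6 CPM in non-dividing cells (log2 fold -0.33 ± 0.16, adjusted p = 0.131).

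The count of falls in this list depended on the fit. It was 5, with a median log2 fold of -0.44, at equal detected genes, where Slc7a10, F3 and Mt1 still passed and Clu and Lcat did not (log2 folds -0.79 and -0.85, adjusted p = 0.103 and 0.208). It was 34 when the same weighted levels were fitted for the 2 astrocyte groups alone, where 8.36% of all genes fell and 11.4% rose. It was 21 among cells with all 5 astrocyte genes and 19 without library 1. No gene of the list rose in any of these 4 fits.

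Gfap, the intermediate filament gene of astrocytes at the cortical surface, in white matter and near the ventricle, had the largest fall among the 9608 genes tested. It had 195, 187 and 95.7 CPM in dividing, against 575, 726 and 540.4 CPM in non-dividing cells (log2 fold -1.93 ± 0.38, adjusted p = 3.3e-04). The highest dividing library lay far below the lowest non-dividing one, and the log2 fold was -2.24 at equal detected genes (adjusted p = 5.3e-04) and -1.98 among cells with all 5 astrocyte genes (adjusted p = 6.3e-04). Gfap was above 0 in 27.9% of dividing and 40.7% of non-dividing astrocytes, against 4.82% of non-dividing microglia. Of 11 tested genes that mark border and white matter astrocytes, 1 rose and 5 fell, against 19.7% and 9.21% of all genes. There were 3 falls without library 1 or without library 3. At equal detected genes there were 0 rises and 2 falls of 14 tested, where 10.1% of all genes rose and 4.49% fell. When those weighted levels were fitted for the astrocyte groups alone, 1 rose and 5 fell, where 11.4% and 8.36% of all genes did. The small heat shock protein gene Cryab had 26.4, 36.4 and 32.1 CPM in dividing, against 55.7, 67.0 and 65.0 CPM in non-dividing cells (log2 fold -0.81 ± 0.18, adjusted p = 8.5e-04). The hyaluronan receptor gene Cd44 rose, with 62.6, 66.3 and 51.8 CPM in dividing, against 28.2, 28.9 and 26.1 CPM in non-dividing cells (log2 fold 0.89 ± 0.13, adjusted p = 5.4e-06), and its log2 fold was 0.54 at equal detected genes (adjusted p = 0.162). Neither gene's libraries overlapped between the groups.

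**Figure D3:**
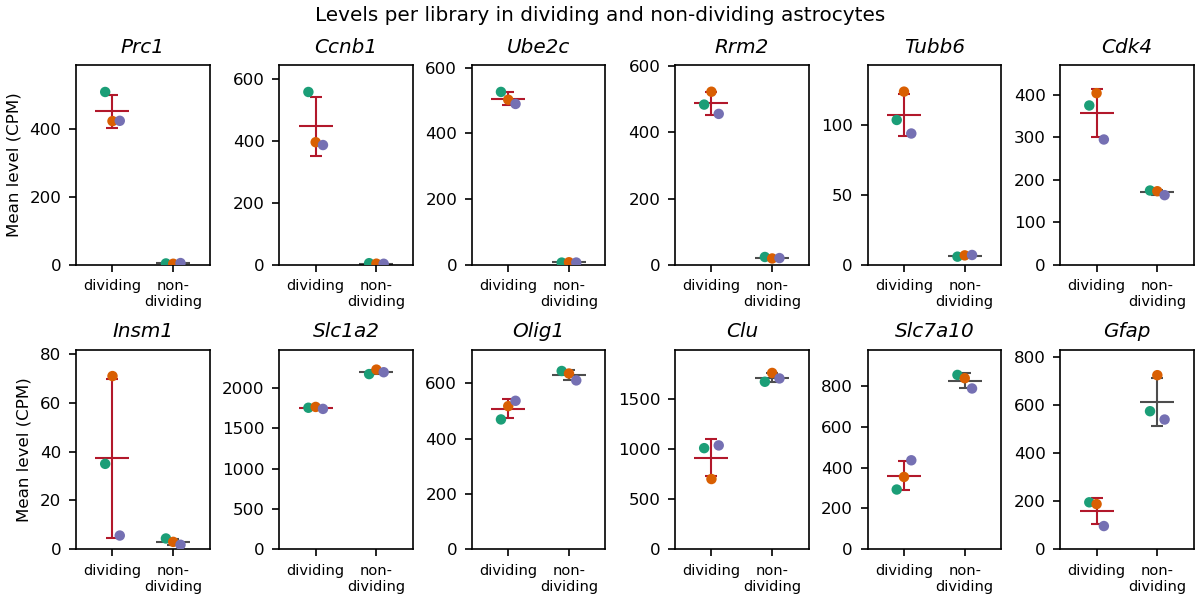
Mean level (y axes, CPM, each from 0) of 12 genes in dividing (left) and non-dividing (right) astrocytes, 1 point per library, with the mean and SD. Prc1, Ccnb1, Ube2c, Rrm2 and Tubb6 are near 0 in non-dividing astrocytes, Insm1 is spread from 5.52 to 71.1 CPM among dividing libraries, and Clu, Slc7a10 and Gfap are lower in every dividing library.

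Radial glia and progenitor genes did not move together. Of 33 tested, 3 rose and 7 fell after centring on the median gene, where 12.5% and 19.4% of all genes did. In the main fit 4 rose and 4 fell, against 19.7% and 9.21% of all genes. Their median log2 fold was 0.07, near the 0.06 of all genes, so this list does not mark the dividing cells as progenitors and they are called dividing astrocytes here. Sox11, a factor of immature neural cells, had 234, 185 and 155 CPM in dividing, against 108, 99.5 and 84.8 CPM in non-dividing cells (log2 fold 0.89 ± 0.14, adjusted p = 2.3e-05). Its groups did not overlap. Nes, which encodes the progenitor filament nestin, rose by 0.66 on the log2 scale (adjusted p = 0.0029), but its log2 fold was 0.17 at equal detected genes (adjusted p = 0.589) and its adjusted p was 0.112 without library 2. Egfr, a receptor of dividing glial progenitors, had 193, 169.9 and 126 CPM in dividing, against 136, 136 and 135 CPM in non-dividing cells (log2 fold 0.23 ± 0.17, adjusted p = 0.346). Vim, another filament gene, had 302, 289 and 345 CPM in dividing, against 260.2, 221 and 216 CPM in non-dividing cells (log2 fold 0.41 ± 0.22, adjusted p = 0.176). Rarres2, the chemerin gene, fell (log2 fold -0.85, adjusted p = 0.0057), with libraries that overlapped and an adjusted p of 0.082 without library 1.

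In the Notch pathway a ligand on 1 cell activates a receptor on its neighbour, which then transcribes Hes genes, and these hold back the formation of neurons. Of 13 tested Notch genes 3 rose and 1 fell, shares near those of all genes (19.7% and 9.21%). Hes6, which opposes other Hes proteins, had 147, 131 and 104 CPM in dividing, against 62.6, 54.7 and 62.2 CPM in non-dividing cells (log2 fold 0.97 ± 0.13, adjusted p = 1.4e-06). The ligand gene Dll1 had 17.5, 3.23 and 16.8 CPM in dividing, against 3.44, 1.02 and 3.81 CPM in non-dividing cells (log2 fold 0.75 ± 0.19, adjusted p = 0.0038), and Dll3 14.7, 13.0 and 2.76 CPM in dividing, against 2.28, 2.19 and 1.15 CPM in non-dividing cells (log2 fold 0.71 ± 0.17, adjusted p = 0.0027). Library 2 had little Dll1 and library 3 little Dll3 in dividing cells, and without library 1 the adjusted p was 0.094 for Dll1 and 0.084 for Dll3, with 0.089 for Dll3 without library 2. The Notch target Hes5 fell, with 479, 445 and 614 CPM in dividing, against 697, 625 and 738 CPM in non-dividing cells (log2 fold -0.42 ± 0.12, adjusted p = 0.0068), and without library 2 its adjusted p was 0.055. Without library 1, 1 Notch gene rose and 2 fell.

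The higher levels of Insm1 and Lgals1 lay in a minority of the dividing cells, those with the fewest astrocyte genes. Among dividing astrocytes 30 had 3 of the 5 astrocyte genes above 0, 44 had 4 and 130 had 5. Insm1, a factor of neuronal precursors, was above 0 in 9 of 30, 3 of 44 and 1 of 130 dividing cells with 3, 4 and 5 astrocyte genes, and averaged 209 ± 199 CPM, 29.3 ± 50.7 CPM and 1.78 ± 3.08 CPM. In non-dividing cells with 3, 4 and 5 it averaged 19.9 ± 12.8 CPM, 4.51 ± 4.86 CPM and 1.47 ± 0.858 CPM. Lgals1, the galectin-1 gene, averaged 1203 ± 183 CPM, 40.1 ± 35.3 CPM and 30.1 ± 15.3 CPM in the same dividing cells. Slc1a2 ran the other way, at 456 ± 26.8 CPM, 1736 ± 403 CPM and 2079 ± 162 CPM. Median detected genes were 3066, 2916 and 3253 in dividing cells with 3, 4 and 5 astrocyte genes. The split was made after these values were seen and uses genes of the rule, so it carries no test.

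Cells that missed the rule by 1 astrocyte gene had more Lgals1 and less Slc1a2 than the members, while Insm1 lay near its level in members with 3 astrocyte genes. The 44 cells with 2 astrocyte genes and at least 2 cycle genes had Insm1 at 185 ± 83.4 CPM, above 0 in 18 of 44, with Lgals1 at 2196 ± 787 CPM and Slc1a2 at 106 ± 54.0 CPM. Tubb6 averaged 188 ± 129.8 CPM, 86.3 ± 33.9 CPM and 99.0 ± 12.1 CPM in dividing cells with 3, 4 and 5 astrocyte genes, and 245 ± 119.7 CPM in these 44 cells. Insm1 was above 0 in 6.37% of all dividing astrocytes, against 1.23% of non-dividing microglia and 3.45% of cells of the oligodendrocyte gate, cell types that should lack it. Median detected genes in these 3 sets were 3173.5, 1810 and 3038.5.

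When both groups were limited to cells with all 5 astrocyte genes, 1613 genes rose (16.8%) and 659 fell (6.85%), and the neurogenic genes Insm1, Hes6 and Dll3 no longer passed. The log2 fold was 0.01 for Insm1 (adjusted p = 0.979), -0.01 for Hes6 (adjusted p = 0.983) and 0.13 for Dll3 (adjusted p = 0.624). For Lgals1 it was -0.38 (adjusted p = 0.291), against 1.88 among all members. Sox11 was still higher (0.68, adjusted p = 0.0059), as were Cd44 (0.78, adjusted p = 9.4e-05), Tubb6 (2.63, adjusted p = 1.5e-13) and Cdk4 (0.64, adjusted p = 5.8e-06). This limit was set after the values above were seen.

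**Figure D4:**
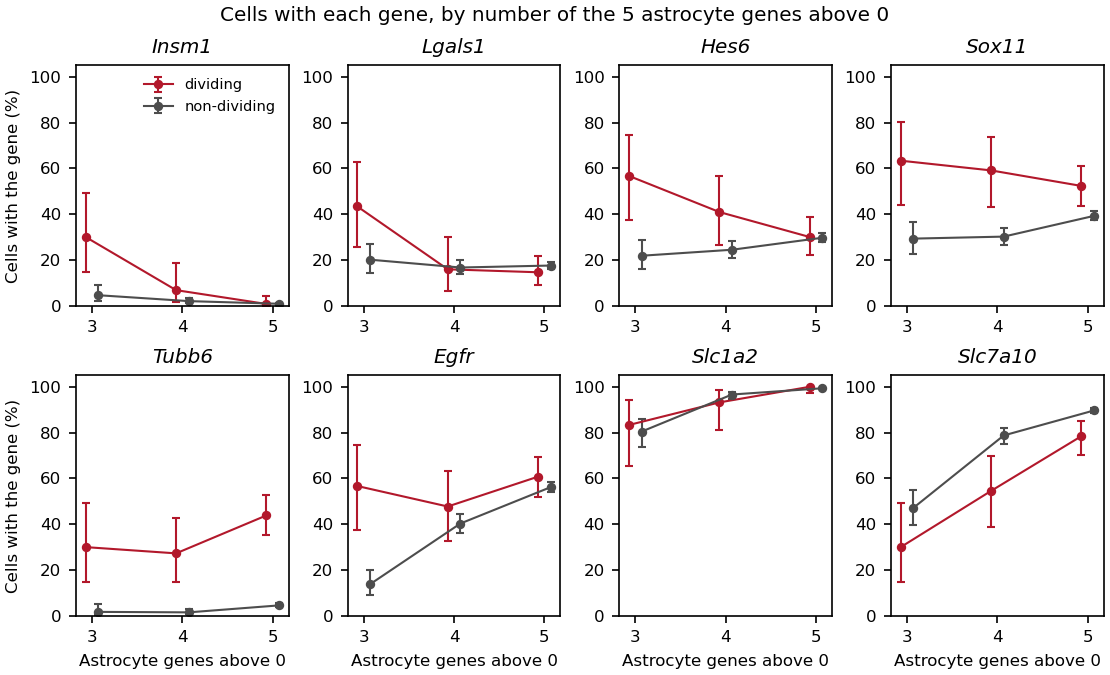
Cells with each of 8 genes above 0 (y axes, %, with exact 95% binomial intervals over pooled cells) by the number of the 5 astrocyte genes above 0 (x axes), in dividing (red) and non-dividing (grey) astrocytes. Insm1, Lgals1 and Hes6 are most frequent in dividing cells with 3 astrocyte genes, while Tubb6 is higher in dividing than in non-dividing cells at 3, 4 and 5.

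The bHLH factor genes Olig1 and Olig2, best known from the oligodendrocyte lineage and also found in young astrocytes, were frequent in both groups. Olig1 was above 0 in 84.3% of dividing and 82.6% of non-dividing astrocytes, against 17.6% of non-dividing microglia. Olig2 was above 0 in 95 of 204 dividing and 1546 of 3091 non-dividing astrocytes, against 4.72% of the microglia. Neither passed the test, with a log2 fold of -0.31 for Olig1 (adjusted p = 0.092) and -0.03 for Olig2 (adjusted p = 0.913). Of 17 tested oligodendrocyte lineage genes 2 rose and 0 fell, against 19.7% and 9.21% of all genes. After centring on the median gene 1 rose and 4 fell, where 12.5% and 19.4% of all genes did. When the weighted levels of equal detected genes were fitted for the astrocyte groups alone, 0 rose and 2 fell. In that fit 11.4% of all genes rose and 8.36% fell. The 2 rises were Myt1 (log2 fold 0.59, adjusted p = 0.0042) and Cacng4 (0.46, adjusted p = 0.032), and without library 2 neither passed (adjusted p = 0.064 and 0.179).

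Of 16 tested neuronal lineage genes 1 rose and 1 fell, against 19.7% and 9.21% of all genes. Insm1 rose, with 35.0, 71.1 and 5.52 CPM in dividing, against 4.32, 2.92 and 1.73 CPM in non-dividing cells (log2 fold 1.57 ± 0.26, adjusted p = 3.8e-05). Nrxn3, a presynaptic adhesion gene, fell (log2 fold -0.35 ± 0.13, adjusted p = 0.049), with adjusted p of 0.197, 0.056 and 0.259 without library 1, 2 and 3. None of 16 microglia and vessel genes and none of 5 hemoglobin genes passed the limma test in either direction, against the same shares of all genes. At an unadjusted p under 0.05 there were 1 and 0 of them. When the weighted levels of equal detected genes were fitted for the astrocyte groups alone, 1 rose and 5 fell of the microglia and vessel genes and 4 hemoglobin genes rose. In that fit 11.4% of all genes rose and 8.36% fell.

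Genes that govern entry into the cycle rose in part. Of 22 tested G1 cyclins, kinases, E2F factors and inhibitors 12 rose and 2 fell, against 19.7% and 9.21% of all genes, with 9 and 1 at equal detected genes and 10 and 0 without library 1. With division 11 of the 22 also rose in oligodendrocyte precursors, 19 in Dlx-positive cells and 11 in microglia, where 1411, 2943 and 1264 of all 9608 genes rose. How far these 22 genes move with the 4 cycle genes that chose the cells was not tested, so their counts are a description. Cdk4, the kinase of the D cyclins, had 374, 403 and 294 CPM in dividing, against 174, 173 and 164 CPM in non-dividing cells (log2 fold 1.02 ± 0.092, adjusted p = 9.5e-10), and its sister kinase Cdk6 75.0, 46.1 and 24.5 CPM in dividing, against 14.9, 11.4 and 10.7 CPM in non-dividing cells (log2 fold 1.30 ± 0.18, adjusted p = 2.3e-06). Both kinase genes were higher in every dividing library. Cdk6 was more frequent in members with fewer astrocyte genes, above 0 in 14 of 30, 18 of 44 and 17 of 130 dividing cells with 3, 4 and 5 of them, against 26 of 174, 39 of 593 and 133 of 2324 non-dividing cells. Among cells with all 5 its log2 fold was 0.54 (adjusted p = 0.040). Among the D cyclins Ccnd1 fell (log2 fold -0.36 ± 0.13, adjusted p = 0.031), a call lost without any 1 library (adjusted p = 0.064, 0.094 and 0.163). Ccnd2 had 762, 811 and 586 CPM in dividing, against 848, 909.6 and 882 CPM in non-dividing cells (log2 fold -0.30 ± 0.13, adjusted p = 0.099), and Ccnd3 had a log2 fold of 0.30 (adjusted p = 0.099). Inhibitors were among the largest rises of the list, with the CDK4 and CDK6 inhibitor gene Cdkn2c at 351, 284 and 314 CPM in dividing, against 44.1, 48.7 and 43.5 CPM in non-dividing cells (log2 fold 2.55 ± 0.13, adjusted p = 2.6e-15). The phosphatase gene Cdkn3 (log2 fold 2.68) and the repressor genes E2f8 (2.05) and Rbl1 (1.55) also rose, with adjusted p of 1.1e-12, 6.6e-13 and 1.2e-08. Cdkn1a, which encodes p21, an inhibitor under p53 control, rose by 0.84 on the log2 scale (adjusted p = 1.0e-03). At equal detected genes its log2 fold was 0.54 (adjusted p = 0.200).

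Few growth factor, BMP and Wnt genes passed. Of 21 tested growth factor receptors and feedback genes 2 rose and 0 fell, where 19.7% and 9.21% of all genes did. The 2 were Etv1 (log2 fold 0.47, adjusted p = 0.014), a target of FGF signalling, and Tgfbr1 (0.40, adjusted p = 0.027). After centring on the median gene 0 rose and 4 fell, where 12.5% and 19.4% of all genes did. Of 23 BMP and Wnt genes 1 rose and 0 fell, with 1 and 2 after centring. The 1 was the secreted Wnt modulator gene Sfrp2, at 26.3, 32.4 and 23.6 CPM in dividing, against 11.9, 9.10 and 11.7 CPM in non-dividing cells (log2 fold 0.84 ± 0.20, adjusted p = 0.0026). None of these 3 passed at equal detected genes, with adjusted p of 0.207, 0.288 and 0.160, nor without library 2, with 0.087, 0.411 and 0.115.

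Chromatin genes rose broadly: 18 of 23 tested rose and 0 fell, where 19.7% of all genes rose, with a median log2 fold of 0.70 and the same 18 and 0 genes at an unadjusted p under 0.05. Hmgb2, a chromatin protein of dividing cells, had 1929, 2016 and 1703 CPM in dividing, against 139, 126 and 131 CPM in non-dividing cells (log2 fold 3.74 ± 0.089, adjusted p = 6.9e-22), and the nucleosome-binding protein gene Hmgn2 957, 1051 and 753 CPM in dividing, against 157, 145 and 155 CPM in non-dividing cells (log2 fold 2.51 ± 0.10, adjusted p = 4.0e-17). Ezh2, which writes the repressive mark H3K27me3, had 159, 173 and 165 CPM in dividing, against 37.2, 39.9 and 37.9 CPM in non-dividing cells (log2 fold 1.86 ± 0.12, adjusted p = 4.4e-13). In all 3 genes the dividing libraries lay far above the non-dividing ones. The maintenance DNA methyltransferase gene Dnmt1 rose too (log2 fold 1.57, adjusted p = 7.5e-10). At equal detected genes 15 of 24 tested rose. With division 14 of the 23 also rose in oligodendrocyte precursors, 16 in Dlx-positive cells and 16 in microglia. In these 3 gates 1411, 2943 and 1264 of all 9608 genes rose. How far the list moves with the 4 cycle genes that chose the cells was not tested, so its count is a description.

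Tubulin genes split by isotype. Tubulins form the microtubules of the spindle and of cell processes, and 7 of 12 tested tubulin and stathmin genes rose while 3 fell, against 19.7% and 9.21% of all genes. Tubb6, a beta tubulin isotype, had 104, 124 and 94.2 CPM in dividing, against 5.79, 6.70 and 6.99 CPM in non-dividing cells (log2 fold 2.82 ± 0.15, adjusted p = 6.1e-15). The alpha isotype Tuba1c had 131, 102 and 86.9 CPM in dividing, against 2.72, 3.56 and 1.90 CPM in non-dividing cells (log2 fold 3.18 ± 0.15, adjusted p = 5.5e-16), and Tubb5 1335, 1193 and 1151 CPM in dividing, against 286, 263 and 236 CPM in non-dividing cells (log2 fold 2.19 ± 0.067, adjusted p = 6.2e-20). Tubb6 and Tuba1c were nearly off in non-dividing astrocytes, while Tubb5 was already present. Tuba1b rose by 2.70 and Stmn1, which takes microtubules apart, by 2.47 on the log2 scale (adjusted p = 8.8e-22 and 6.4e-19). Tuba1a, an isotype prominent in neurons, fell by a smaller size (log2 fold -0.26, adjusted p = 0.0043), and so did Tubb2b and Stmn3 (-0.27 and -0.52, adjusted p = 0.017 and 0.010), which did not pass without library 1 (adjusted p = 0.059 and 0.216) nor, for Tubb2b, without library 2 (0.188). Near-identical coding sequences of tubulin and of histone genes can share reads, so the split between copies is uncertain.

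Receptor genes through which astrocytes sense transmitters fell more often than they rose. Of 16 tested glutamate and GABA receptor genes 2 rose and 7 fell, against 19.7% and 9.21% of all genes. Gria2, the AMPA receptor subunit that keeps calcium out, had 216, 308 and 358 CPM in dividing, against 532, 594 and 553 CPM in non-dividing cells (log2 fold -0.93 ± 0.17, adjusted p = 8.4e-05). The metabotropic receptor gene Grm5 had 115, 148 and 175 CPM in dividing, against 243, 279 and 241 CPM in non-dividing cells (log2 fold -0.78 ± 0.15, adjusted p = 2.7e-04), and the GABA-A subunit gene Gabrb1 99.7, 104 and 106 CPM in dividing, against 169.7, 171 and 149.7 CPM in non-dividing cells (log2 fold -0.61 ± 0.14, adjusted p = 9.9e-04). No library overlapped between the groups in these 3 genes. The kainate receptor gene Grik1 rose by 0.56 on the log2 scale (adjusted p = 0.0034), with an adjusted p of 0.114 without library 3. At equal detected genes 1 gene of the list passed, Gria2 (log2 fold -0.74, adjusted p = 0.0078). When those weighted levels were fitted for the astrocyte groups alone, 1 rose and 6 fell of 17 tested. In that fit 11.4% of all genes rose and 8.36% fell.

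Sterol and fatty acid synthesis genes, which make the cholesterol that astrocytes supply, fell in part: 0 rose and 11 fell of 26 tested, where 9.21% of all genes fell, with 0 higher and 14 lower at an unadjusted p under 0.05 and a median log2 fold of -0.32. The desaturase gene Scd1 averaged 97.7 ± 3.28 CPM in dividing and 182 ± 8.14 CPM in non-dividing cells (log2 fold -0.84 ± 0.17, adjusted p = 4.0e-04), and the sterol dehydrogenase gene Nsdhl had 98.9, 104 and 139 CPM in dividing, against 186, 196 and 189 CPM in non-dividing cells (log2 fold -0.70 ± 0.15, adjusted p = 9.2e-04). Mvd fell by 0.65 and Msmo1 by 0.56 on the log2 scale (adjusted p = 0.0027 and 0.0044). The number of falls was 1 at equal detected genes, 12 when those weighted levels were fitted for the astrocyte groups alone, 5 without library 1 and 5 without library 2.

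Few genes of energy supply passed, where 19.7% of all genes rose and 9.21% fell. More of them fell after centring on the median gene, a step that took the falls among all genes to 19.4%. Of 20 glycolysis and lactate genes 1 rose, Pgk1 (log2 fold 0.40, adjusted p = 0.0027), and 2 fell, Aldoa (-0.68, adjusted p = 7.7e-07) and Eno1 (-0.22, adjusted p = 0.024), of which Aldoa alone passed without library 1, while 0 rose and 11 fell after centring on the median gene. Aldoa, the aldolase shared with other tissues, had 453, 404 and 424 CPM in dividing, against 677, 687 and 702 CPM in non-dividing cells, and its libraries did not overlap between the groups. Among 28 nuclear respiratory chain genes 2 rose and 4 fell, with 0 and 0 without library 1, 0 and 1 without library 2, and 0 and 10 after centring on the median gene. The largest in the main fit was the rise of Cox7a2 by 0.24 on the log2 scale.

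Stress genes went both ways. Of 23 heat shock and unfolded protein response genes 7 rose and 5 fell, against 19.7% and 9.21% of all genes. There were 4 and 3 at equal detected genes, and 3 and 5 without library 2. After centring on the median gene 4 rose and 11 fell, where 12.5% and 19.4% of all genes did. Hsp90aa1, the inducible cytosolic HSP90 gene, had 1003, 801 and 592 CPM in dividing, against 423, 351 and 301 CPM in non-dividing cells (log2 fold 1.11 ± 0.11, adjusted p = 3.1e-09), and the mitochondrial chaperonin gene Hspd1 303, 283 and 273 CPM in dividing, against 176, 179.6 and 166 CPM in non-dividing cells (log2 fold 0.69 ± 0.10, adjusted p = 3.2e-06). Both were higher in every dividing library. Calr, the calcium-binding chaperone of the endoplasmic reticulum, had 300.3, 299 and 401 CPM in dividing, against 535, 536 and 530.3 CPM in non-dividing cells (log2 fold -0.68 ± 0.090, adjusted p = 1.2e-06), and Xbp1, a transcription factor of the unfolded protein response, 56.6, 30.9 and 37.7 CPM in dividing, against 75.9, 71.7 and 77.8 CPM in non-dividing cells (log2 fold -0.75 ± 0.14, adjusted p = 1.3e-04). Both were lower in every dividing library. Hspa5, another chaperone of the endoplasmic reticulum, fell as well (log2 fold -0.44, adjusted p = 2.8e-04).

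Of 23 p53 and apoptosis genes 4 rose and 2 fell, shares near the 19.7% and 9.21% of all genes, with 0 and 2 at equal detected genes, 2 and 1 without library 1, and 2 and 2 without library 2. Casp8, the caspase of death receptors, had 14.9, 24.0 and 21.5 CPM in dividing, against 6.50, 7.45 and 7.52 CPM in non-dividing cells (log2 fold 0.80 ± 0.14, adjusted p = 5.3e-05). Trp53, which encodes p53 itself, rose by 0.48 on the log2 scale (adjusted p = 0.0032), but not without library 1 (adjusted p = 0.144). Bcl2l11, which promotes apoptosis, rose by 0.54 (adjusted p = 0.0019), but not without library 3 (0.076). Ddit4, an inhibitor of mTORC1, fell, with 85.5, 90.1 and 77.7 CPM in dividing, against 143, 134 and 157 CPM in non-dividing cells (log2 fold -0.71 ± 0.13, adjusted p = 1.2e-04).

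Immediate early genes respond to activity and to tissue handling, and of 14 tested 2 rose and 3 fell, against 19.7% and 9.21% of all genes, with 0 and 2 at equal detected genes and 1 and 1 without library 1. Jund fell (log2 fold -0.56 ± 0.11, adjusted p = 2.2e-04). Klf2 fell (log2 fold -0.62 ± 0.23, adjusted p = 0.047) and lost the call without library 1 (adjusted p = 0.496) or library 3 (0.073). Ier5 rose (log2 fold 0.75 ± 0.14, adjusted p = 1.7e-04). Egr1 rose (log2 fold 0.62 ± 0.18, adjusted p = 0.012), but not without library 1 (log2 fold 0.29, adjusted p = 0.300) or library 2 (adjusted p = 0.054), and its log2 fold was -0.03 among cells with all 5 astrocyte genes.

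**Figure D5:**
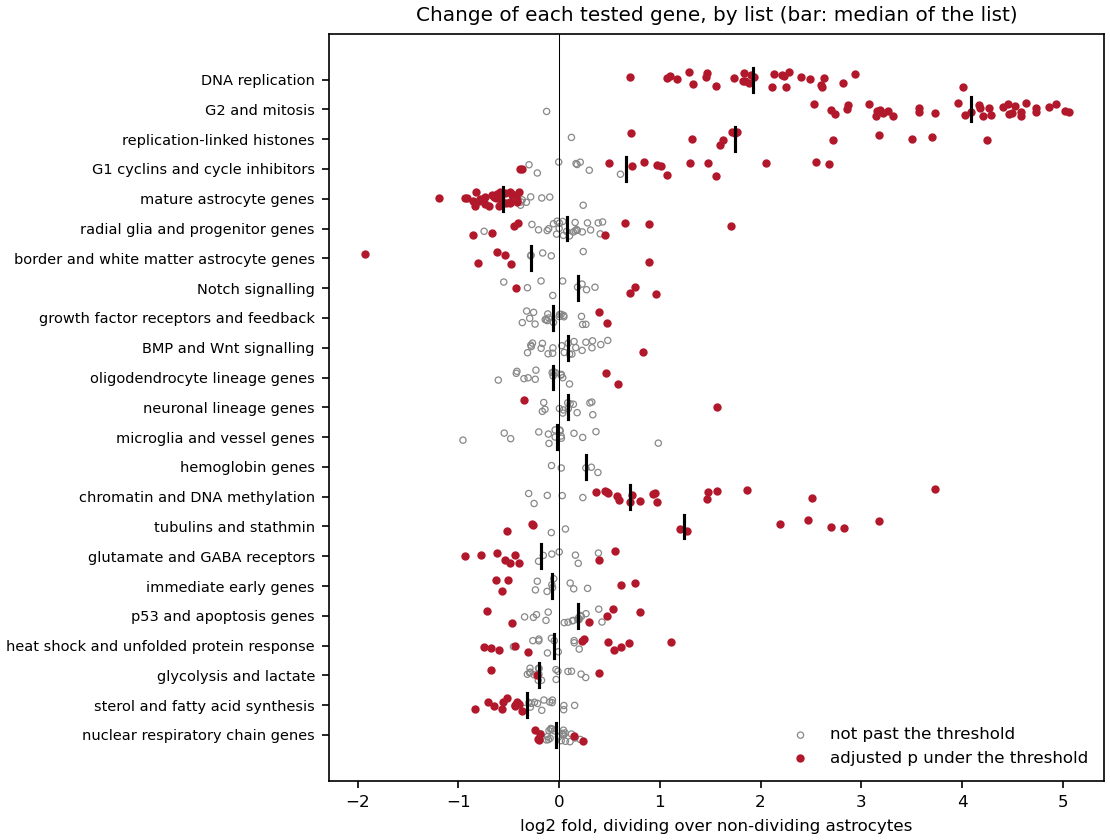
Log2 fold of dividing over non-dividing astrocytes (x axis) for each tested gene of 23 lists (rows), filled where the adjusted p was under 0.05, with the median of each list as a bar. Cycle, chromatin and some tubulin genes lie to the right, and mature astrocyte and sterol genes mostly to the left.

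Outside the 3 cycle lists, the largest rises included these 5 genes. How far the 5 move with the 4 cycle genes that chose the cells was not tested. Pclaf, a partner of PCNA, had 309, 393 and 351 CPM in dividing, against 5.17, 4.53 and 9.78 CPM in non-dividing cells, and the spindle pole gene Aspm 275, 189 and 190.2 CPM in dividing, against 0.891, 0.903 and 1.01 CPM in non-dividing cells (log2 folds 4.46 and 4.36). Knstrn, a kinetochore gene, the non-coding gene Lockd and Pimreg were also among them, with log2 folds of 3.93, 3.82 and 3.79. After Gfap and Slc7a10, the largest falls included Slc13a3, a carrier of dicarboxylates, at 12.8, 23.7 and 11.1 CPM in dividing, against 42.8, 44.6 and 55.3 CPM in non-dividing cells (log2 fold -1.18 ± 0.17, adjusted p = 3.6e-06). Acss2, which makes acetyl-CoA from acetate, had 26.4, 43.9 and 66.6 CPM in dividing, against 108, 107 and 114 CPM in non-dividing cells (log2 fold -1.17 ± 0.22, adjusted p = 1.6e-04). Tlr3, a sensor of double-stranded RNA, had 17.4, 22.8 and 7.82 CPM in dividing, against 37.9, 47.3 and 48.0 CPM in non-dividing cells (log2 fold -1.11 ± 0.17, adjusted p = 9.6e-06). In these 3 genes every dividing library lay below every non-dividing one. Rsrp1 fell by 1.09 on the log2 scale (adjusted p = 1.3e-07).

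How far these changes go with division in other cells was asked by setting the dividing astrocytes' change against that of dividing oligodendrocyte precursors (526 dividing, 2265 non-dividing cells), Dlx-positive cells (676 and 1391) and microglia (496 and 1059). The 3 comparisons share the astrocyte cells. The difference of log2 folds passed the test as higher in astrocytes for 267 genes (2.78%) and lower for 73 (0.76%) against precursors, 340 in all (3.54%). Against Dlx-positive cells it was higher for 610 (6.35%) and lower for 735 (7.65%), 1345 in all (14.0%), and against microglia higher for 459 (4.78%) and lower for 221 (2.3%), 680 in all (7.08%). The totals were 57, 655 and 176 without library 1, 107, 759 and 189 without library 2, and 720 against Dlx-positive cells without library 3. Which side held more genes against Dlx-positive cells depended on the fit. There were 1032 (10.7%) higher and 385 (4.01%) lower after centring on the median gene, 363 (3.64%) higher and 61 (0.612%) lower at equal detected genes, and 518 (13.8%) higher and 366 (9.74%) lower at a minimum mean of 50 CPM.

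The cycle lists move with the 4 genes that chose the dividing cells of every gate, so their counts are a description and support nothing. The replication genes differed in none of 30 members against precursors by limma, with 6 at an unadjusted p under 0.05, in 6 against Dlx-positive cells and in 18 against microglia, all of these 18 higher in astrocytes. Over all genes 3.54%, 14.0% and 7.08% differed in these comparisons. Their median log2 folds were 1.92 in astrocytes, 2.02 in precursors, 2.04 in Dlx-positive cells and 1.07 in microglia. Among 39 mitosis genes 1 was higher and 4 lower in astrocytes against precursors, 2 higher and 12 lower against Dlx-positive cells, and 13 higher and 1 lower against microglia. Hells, a chromatin remodeller of S phase, rose by 2.50 in astrocytes and 0.62 in microglia (difference 1.88 ± 0.22, adjusted p = 3.6e-06). Non-dividing microglia held more Lig1, Pcna and Rrm1 than non-dividing astrocytes, at 50.9 against 8.72, 94.1 against 44.3 and 44.9 against 24.0 CPM. They held less Rrm2, at 15.0 against 20.8 CPM. Median detected genes in dividing cells were 3173.5 in astrocytes, 3302.5 in precursors and 2319.5 in microglia. The part of these levels and of this gap in the microglial differences was not tested.

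Tubb6 set the change in astrocytes apart from that in all 3 other gates on the scale of the fit, log2 of the level plus 10 CPM. Its level was 104, 124 and 94.2 CPM in dividing and 5.79, 6.70 and 6.99 CPM in non-dividing astrocytes. In precursors it was 11.1, 6.97 and 5.86 CPM in dividing and 2.81, 1.70 and 1.73 CPM in non-dividing cells, and in microglia 43.0, 48.8 and 49.9 CPM in dividing and 40.2, 33.8 and 25.1 CPM in non-dividing cells. Dlx-positive cells had 11.3, 10.5 and 15.1 CPM when dividing and 1.42, 0 and 0.522 CPM when not. Dividing astrocytes thus held more Tubb6 than any other of the 8 groups in every library, though on average less than the dividing cells with 2 astrocyte genes that missed the rule. The log2 fold in astrocytes exceeded that in precursors by 2.26 ± 0.21, adjusted p = 1.5e-07, that in Dlx-positive cells by 1.76 ± 0.21, adjusted p = 1.0e-06, and that in microglia by 2.40 ± 0.21, adjusted p = 2.2e-08. At equal detected genes the 3 differences were 2.28, 1.81 and 2.49, and all 3 passed without any 1 library. Levels in precursors and Dlx-positive cells lay near or below the added 10 CPM, which understates their folds. The relative rise in Dlx-positive cells was therefore not shown to be smaller than that in astrocytes.

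Tubb5 had log2 folds of 2.19 in astrocytes and -0.08 in Dlx-positive cells (difference 2.26 ± 0.094, adjusted p = 3.2e-15). Non-dividing Dlx-positive cells already held 6555 ± 844 CPM of Tubb5, against 261 ± 24.9 CPM in non-dividing astrocytes. Against precursors the difference for Tubb5 was 0.86 ± 0.094, adjusted p = 3.0e-06, and against microglia 1.15 ± 0.094, adjusted p = 1.6e-08. Stmn1 had log2 folds of 2.47 in astrocytes and 0.26 in Dlx-positive cells (difference 2.21 ± 0.12, adjusted p = 7.9e-13), and Hmgn2 of 2.51 and 1.29 (difference 1.22 ± 0.15, adjusted p = 1.3e-06). The differences from Dlx-positive cells passed without any 1 library. Against precursors the differences did not pass, at 0.01 ± 0.12, adjusted p = 0.971 for Stmn1 and 0.42 ± 0.15, adjusted p = 0.130 for Hmgn2. Tubulin and stathmin genes are known to be highly transcribed in young neurons, whose growing processes use them outside division.

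Other differences were less steady. Sox11 had log2 folds of 0.89 in astrocytes and 0.66 in precursors, a difference that did not pass (0.23 ± 0.20, adjusted p = 0.664). The other gates had log2 folds of -0.24 in Dlx-positive cells (difference 1.13 ± 0.20, adjusted p = 3.5e-04) and -0.55 in microglia (1.45 ± 0.20, adjusted p = 5.7e-05). The difference from Dlx-positive cells had an adjusted p of 0.086 at equal detected genes. Cdk4 rose by 1.02 in astrocytes, against 0.22 in precursors (0.79 ± 0.13, adjusted p = 3.0e-04), a difference with an adjusted p of 0.054 without library 1 and 0.069 without library 2. Cdk6 rose by 1.30 in astrocytes and had a log2 fold of -0.29 in precursors (1.59 ± 0.25, adjusted p = 2.4e-04), with an adjusted p of 0.117 for the difference where the astrocytes had all 5 astrocyte genes. Against microglia the difference for Cdk6 was 1.46 ± 0.25, adjusted p = 5.9e-04. Its adjusted p was 0.111 at equal detected genes and 0.154 where the astrocytes had all 5 astrocyte genes. Dlx-positive cells had the higher log2 fold for Cdk6, 2.08 (-0.78 ± 0.25, adjusted p = 0.039). That difference was 0.62 at equal detected genes (adjusted p = 0.204) and did not pass without library 2 or 3 (0.199 and 0.310). It passed without library 1 (0.022) and with all 5 astrocyte genes (-1.54, adjusted p = 3.5e-04). Cdkn2c went the other way, with log2 folds of 2.55 in astrocytes and 3.65 in precursors (difference -1.10 ± 0.18, adjusted p = 3.0e-04), and an adjusted p of 0.055 at equal detected genes.

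Mature astrocyte genes and sterol genes were also set against the same genes in the other gates, where astrocyte genes are scarce. For the 38 mature astrocyte genes the median log2 fold was -0.56 in astrocytes, -0.23 in precursors, -0.40 in Dlx-positive cells and 0.00 in microglia. Against precursors the difference was higher in astrocytes for 0 and lower for 1 of 38 genes, where 2.78% and 0.76% of all genes were. Against Dlx-positive cells it was higher for 5 and lower for 1, where 6.35% and 7.65% of all genes were, and against microglia higher for 1 and lower for 10, where 4.78% and 2.3% were. For the 26 sterol genes it was higher for 0 in all 3 comparisons, and lower for 0 against precursors, with 5 at an unadjusted p under 0.05 in limma, for 10 against Dlx-positive cells and for 4 against microglia.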

How the data were processed

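Cells or nuclei (the labels do not settle which) of 3 mouse prefrontal cortex libraries were sequenced in droplets. The submitters' processing notes name Seurat, Cell Ranger, CASAVA 1.8 and the build mm10; roles, order and other versions are not given in the sources used here. The deposited values are natural logs (ln) of 1 plus a whole number that the authors' pipeline left after a step no source describes: all 34958786 values above 0 gave whole numbers within 1e-06. These corrected counts, summing to 24612481 to 29581504 per library, are not raw reads, so no count model was used.

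Each cell was scaled to 1000000 and averaged by group and library. Genes under a mean of 10 CPM were dropped and 10 CPM was added as a pseudocount before taking log2. The model, limma 3.58.1 in R 4.3.3 with an intensity trend and the library as a block, held 8 groups (dividing and non-dividing cells of 4 gates) in 3 libraries, left 14 residual degrees of freedom and was followed by Benjamini-Hochberg adjustment. The pseudocount understates folds of low genes. The block pairs cells of the same library. The other gates required at least 2 genes of their trio. Doublets were called with Scrublet in scanpy 1.11.5 and kept in the main fit.

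The members and the 23 gene lists were chosen with earlier results of these data known. By the rule used, the 4 largest called changes of each list, the 6 largest rises and falls outside the cycle lists and the 4 largest differences per gate were named, apart from some that are not reported here; Egfr, Vim, Nes, Slc1a2, Cdk4, Cdk6, Cdkn1a, the D cyclins, Olig genes, Malat1, Pttg1, Tubb5, Tuba1a, Tubb2b, Stmn3, Hspa5, Gpr37l1, Glul, Apoe and Mt1 were added after their values were seen. On simulated data with 200 of 9608 genes changed between dividing and non-dividing astrocytes, 52% of changes of 0.5 on the log2 scale and 100% of those of 1 were recovered, and 3.83% of calls were false. The simulated noise was normal, with the same spread for a gene in every group, and the groups were fixed. These rates therefore do not cover groups of unequal cell numbers or groups chosen from the same counts. The alternatives are in the closing section.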

Additional observations from a re-analysis of the deposited data

Results flagged for a closer look

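For 11 pairs of a gene and a gate, the change with division in astrocytes differed from that in the other gate by the interaction term of the limma fit. Differences are log2 folds in astrocytes minus those in the other gate, and no explanation was tested.

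Against oligodendrocyte precursors the difference was 2.80 for Enpp6, a gene of newly formed oligodendrocytes. It averaged 2.74 ± 0.74 CPM in dividing and 96.4 ± 24.1 CPM in non-dividing precursors. In astrocytes it was 0 in all dividing and 1.86 ± 1.63 CPM in non-dividing cells, so this difference lies in the precursor gate. Tubb6 differed by 2.26 and Lgals1 by 2.08.

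Against Dlx-positive cells the differences were 2.92 for Meg3, a non-coding RNA of neurons, 2.31 for the synaptic vesicle gene Synpr, 2.30 for the serotonin receptor gene Htr3a and 2.26 for Tubb5. Meg3 averaged 195 ± 17.0 CPM in dividing and 2029.5 ± 914 CPM in non-dividing Dlx-positive cells, against 68.8 ± 14.0 CPM and 87.8 ± 18.1 CPM in dividing and non-dividing astrocytes. At equal detected genes the difference for Meg3 was 1.20 (adjusted p = 0.031), and Synpr did not pass (adjusted p = 0.161).

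Against microglia the differences were 2.40 for Tubb6, 2.04 for Lgals1, -1.98 for Diaph3, a formin of cell division, and 1.88 for Hells. Diaph3 averaged 52.9 ± 14.9 CPM in dividing and 24.7 ± 3.38 CPM in non-dividing astrocytes, against 99.5 ± 6.78 CPM in dividing and 5.72 ± 2.45 CPM in non-dividing microglia, so that non-dividing astrocytes already held it. The differences for Lgals1 were -0.17 against precursors and -0.22 against microglia where the astrocytes had all 5 astrocyte genes.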

How the results depend on the processing

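The main comparison called 2778 genes. It called 1509 with a minimum mean of 50 CPM, which tests fewer genes, 1456 at equal detected genes, and 1790 to 2422 without 1 library each, the lowest without library 1. Against oligodendrocyte precursors 340 genes differed, with 217 when cells with any other-class gene were left out, 40 at equal detected genes, 199 with all 5 astrocyte genes, and 57 to 286 without 1 library each. Against Dlx-positive cells 1345 differed, with 884 at a minimum mean of 50 CPM, 424 at equal detected genes and 655 to 759 without 1 library each. Against microglia 680 differed, with 397 when only those groups were fitted, 97 at equal detected genes, 359 with all 5 astrocyte genes, and 176 to 576 without 1 library each. Apart from fewer genes or groups, the cause was not tested. The mean dividing share, 5.40%, was 3.72% when 3 cycle genes were asked for and 16.9% when 1 was enough, by construction.

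The log2 fold changed sign in cells with all 5 astrocyte genes for Hes6 (-0.0059), Egr1 (-0.030) and Lgals1 (-0.38). Of 95 named genes, 73 kept direction and side of the threshold in that fit, 63 at equal detected genes and 89 after centring. Without the library, or replicate, block the 4 counts were 2631, 300, 1206 and 582; the pairing by library changed none by over 1.5 times. Fits with all 5 astrocyte genes, and those of weighted levels for the astrocyte groups alone, were added after seeing the data. Depth before correction is unknown, 52 to 95 dividing cells per library limit low genes, and counting intervals do not cover capture or free RNA.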
